A study of Mus musculus with 2 samples.

Results

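The synaptic vesicle and SNARE fusion genes are the 49 named genes of neurotransmitter release and general membrane fusion described here, out of 18193 genes named on the array. They were chosen by name, as the genes to which the platform annotation gives at least 1 probe set of their own, and they had 128 of the 34945 probe sets naming 1 gene. They fall into 21 vesicle proteins, 12 SNAREs and 16 regulators of docking, priming and fusion. RNA came from the cerebral cortex of newborn mice, and each of 2 pools of 3 animals was read on 1 Affymetrix array. The pool labelled control was MRTFA-/-;MRTF-BFlox/Flox, null for Mrtfa with floxed Mrtfb and no Cre. The pool labelled double knockout was MRTF-A-/-;MRTF-BF/F;GFAP-Cre, with the same alleles and a Cre transgene driven by a GFAP promoter. Both pools are therefore labelled null for Mrtfa, and by the labels the comparison asks what Mrtfb deletion with the Cre transgene adds on that background. The Mrtfa signal nonetheless went against an equal status: on its only probe set it was 601.6 for the control label, above the floor used here, and 262.4 for the double knockout label, a log2 difference of -1.20. Mrtfb, the gene said to be deleted, read 3359 and 2482 on its brightest probe set, a smaller difference of -0.44. It is not known here whether these probe sets detect the deleted segments. Control pool and double knockout pool are used below as names taken from the labels. Both are given as postnatal day 0, except that the description of the double knockout sample gives postnatal day 1.

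A synaptic vesicle fuses when the vesicle SNARE synaptobrevin, made by the Vamp genes, zips together with syntaxin and SNAP-25 on the plasma membrane. Munc18 proteins, made by the Stxbp genes, hold syntaxin ready, RIM and Munc13 prime the vesicle, complexin clamps the half-assembled complex, and synaptotagmin triggers fusion when calcium enters. NSF and the alpha- and beta-SNAP adaptors then take the spent complex apart. In newborn cortex most neurons are still extending axons and synapses are few, although many of these genes are already transcribed. SRF is a transcription factor that binds the CArG box, and the MRTF proteins are its actin-sensing coactivators.

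Nearly all of these genes had close to equal signals in both pools. Signals are MAS5 intensities, which have no fixed unit, and 178.6, the median of all signals, served as a floor below which they were not compared. The floor was reached by 47 of the 49 genes, by 46 of them on both arrays, while the probe sets of Sv2c and Syt2 stayed under it on both. Differences are log2 of the double knockout over the control pool, from the brightest probe set of each gene. By that value 21 members were higher and 26 lower, beside 52.9% higher and 47.1% lower among all 11636 measured genes. The members' median was -0.01 and that of all measured genes 0.01. A difference of at least 0.32, a ratio of 5 to 4, was used for counting, with 1.5-fold as a stricter size. None of the 47 was higher by 0.32, as 3.45% of all measured genes were, and none by 1.5-fold, as 0.37% were. Only Snap29 and Stxbp2 were lower by 0.32 or more, as 5.55% of all measured genes were, and of them only Stxbp2 was also past 1.5-fold, as 0.773% of all were. With 1 array a group no difference has a replicate check, no test was made, and the spread between animals is hidden by the pooling.

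**Figure D1:**
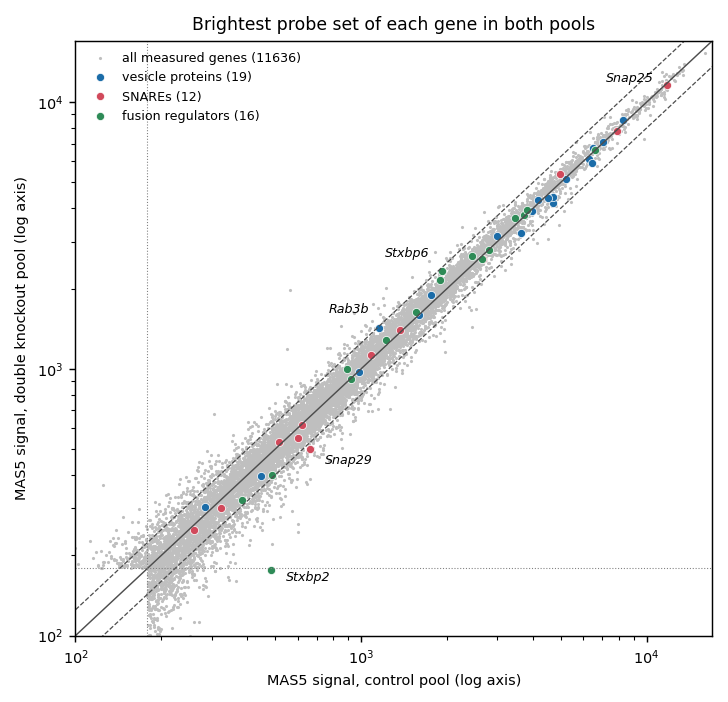
MAS5 signal of the brightest probe set of each gene in the control pool (x axis) and the double knockout pool (y axis), both on log axes, with the 47 measured members in colour over all 11636 measured genes in grey. The solid line marks equal signals, the dashed lines differences of 0.32 log2 and the dotted lines the floor of 178.6; of the members Snap29 and Stxbp2 alone lie beyond the dashed lines.

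The typical size of a member's difference, taken without sign, had a median of 0.07, against 0.10 over all measured genes. Members were mostly bright, and bright genes differed less throughout. Among genes with a mean signal of 1000 or more, the SD of the differences was 0.10 over 33 members and 0.14 over 4511 genes. In that bright range 0 members passed 0.32, and 2.75% of all genes did. Lower there were 45.5% of the members and 35.5% of all genes, with medians of 0.02 and 0.04. Among the dimmer genes on both arrays the SD was 0.16 over 13 members and 0.21 over 6502 genes, and Snap29 was the only one of those members past 0.32. Lower in this range were 76.9% of the members and 52.8% of all genes, with medians of -0.07 and -0.01. In both ranges members were thus lower more often than genes of like brightness, a difference that was not tested. Stxbp2, under the floor in the double knockout pool, is in neither range. With its bound included, the SD was 0.25 over the 47 measured members and 0.19 over all measured genes.

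Promoter sequence was available from RefSeq (GRCm38.p6) for 39 of the 49 members, as windows of 300 bases reaching from 250 before to 50 after an annotated start. They were searched on both strands for the CArG box of SRF, the cAMP response element TGACGTCA, the EGR site GCGTGGGCG and the E-box CAGCTG. No member window held more than 1 match to these motifs, so none overlapped. A CArG box was found in 1 of the 39 members, Vamp1, or 2.56% of them, against 1.81% of all 27025 genes with a window. The cAMP response element was in Napa, Stxbp3 and Syn1, 7.69% against 2.03% of all genes, and the EGR site was in Unc13a, 2.56% against 0.707%. The E-box was in 10 members, 25.6% against 18.3%. These shares describe letters in the windows and carry no test. The windows shown are that of Vamp1 for its CArG box (capitals, bases -229 to -220 from the start), that of Syn1 for its cAMP response element (capitals, -159 to -152), and those of Stxbp2 and Snap29 as the 2 members past 0.32. The last 2 held none of the 4 motifs, so neither has capitals. They lie at chr6:125215331-125215630 on the plus strand for Vamp1, chrX:20920869-20921168 on the minus strand for Syn1, chr8:3630859-3631158 on the plus strand for Stxbp2 and chr16:17405750-17406049 on the plus strand for Snap29.
Vamp1: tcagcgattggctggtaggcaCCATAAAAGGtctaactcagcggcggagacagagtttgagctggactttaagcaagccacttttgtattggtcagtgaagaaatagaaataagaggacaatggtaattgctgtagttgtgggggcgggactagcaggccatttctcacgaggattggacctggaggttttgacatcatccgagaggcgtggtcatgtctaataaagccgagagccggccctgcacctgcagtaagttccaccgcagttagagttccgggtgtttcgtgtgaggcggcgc
Syn1: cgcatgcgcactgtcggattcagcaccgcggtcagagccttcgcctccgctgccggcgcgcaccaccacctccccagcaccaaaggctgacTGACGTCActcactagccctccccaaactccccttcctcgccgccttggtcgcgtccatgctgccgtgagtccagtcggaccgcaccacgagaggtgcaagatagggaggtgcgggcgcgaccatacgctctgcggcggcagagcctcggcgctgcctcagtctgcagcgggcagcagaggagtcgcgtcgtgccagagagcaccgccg
Stxbp2: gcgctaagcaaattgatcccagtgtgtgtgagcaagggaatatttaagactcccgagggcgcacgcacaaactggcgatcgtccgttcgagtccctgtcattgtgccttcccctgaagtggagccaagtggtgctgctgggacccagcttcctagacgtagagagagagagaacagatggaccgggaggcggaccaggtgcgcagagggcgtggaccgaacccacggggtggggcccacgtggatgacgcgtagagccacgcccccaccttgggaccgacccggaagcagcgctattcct
Snap29: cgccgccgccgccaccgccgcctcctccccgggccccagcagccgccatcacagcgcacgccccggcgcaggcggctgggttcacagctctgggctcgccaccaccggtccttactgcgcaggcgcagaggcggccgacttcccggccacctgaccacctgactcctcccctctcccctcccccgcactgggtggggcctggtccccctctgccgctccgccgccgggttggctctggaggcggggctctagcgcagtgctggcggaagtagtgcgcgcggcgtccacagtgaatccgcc
The GC content of these windows was 51.7% for Vamp1, 68.3% for Syn1, 61.3% for Stxbp2 and 75.3% for Snap29. Vamp1, the member with the CArG box, read 602.0 in the control pool and 550.6 in the double knockout pool, a difference of -0.13, within 0.32. Syn1 read 6297 and 6128, and the other 2 members with a cAMP response element, Napa and Stxbp3, differed by -0.04 and -0.25.

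The vesicle proteins as a group did not stand apart from the array as a whole. The 19 measured split into 8 higher and 11 lower. Their median was -0.02 and their range -0.17 to 0.30, and 0 passed 0.32. The synapsins coat vesicles and tether them into a reserve pool. Syn1 differed by -0.04. Syn2 read 4687 and 4206, or -0.16, with a mean of -0.07 ± 0.07 (SD) over its 4 probe sets bright on both arrays. That SD is between probe sets of 1 gene, not between animals. Syn3 went the other way, from 1759 to 1900, or 0.11, and its 2 bright probe sets both lay higher. The 3 synapsins thus differed by no more than 0.16 in size and not in 1 direction.

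Integral vesicle membrane proteins were slightly lower or level. Syp, synaptophysin, the most used marker of synaptic vesicles, read 6433 and 5938, a difference of -0.12. Its relative Synpr, synaptoporin, read 3978 and 3926, or -0.02. Sv2a, a vesicle glycoprotein and the binding site of the drug levetiracetam, read 3632 and 3238, or -0.17 on its only probe set. For Sv2b the brighter probe set read 4167 and 4294, or 0.04, and the dimmer 1741 and 1554, or -0.17. The direction of Sv2b therefore depends on the probe set. Sv2c, the third member of that family, had a single probe set at 142.5 and 97.0, under the floor in both pools.

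Synaptotagmins, the vesicle proteins that carry paired C2 domains, were level. Of the 8 measured, 3 were higher and 5 lower, and the median was -0.01. Syt1, the calcium sensor of fast release in forebrain, had 4 probe sets whose control signals ran from 530.2 to 8280, and all 4 differences lay between 0.00 and 0.04. Their mean was 0.02 ± 0.02 (SD). Syt7, a slow, high-affinity sensor, read 4532 and 4377, or -0.05. Its dimmest probe set, at 242.4 and 196.6, gave -0.31. Syt4 and Syt11, relatives that do not bind calcium in the first C2 domain as Syt1 does, differed by -0.10 and 0.05. The 5 probe sets of Syt11 spread from -0.23 to 0.05, and both probe sets of Syt4 lay within 0.10 of equality, on opposite sides. The remaining ones were dimmer or had fewer probe sets. Syt3 read 444.8 and 395.5, or -0.17, and Syt5 read 983.6 and 971.3, or -0.02. Syt9, another fast sensor, read 283.5 and 303.2, or 0.09. Syt13, an atypical member, had 1 probe set level at 1601 and 1598 and another at 1246 and 972.9, a difference of -0.36 that passes 0.32. All 3 probe sets of Syt2, the fast sensor of hindbrain and some interneurons, stayed below the floor, the highest at 160.5 and 165.7.

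The Rab3 GTPases, which link vesicles to RIM at the active zone, included the highest member of all. Rab3b read 1157 in the control pool and 1426 in the double knockout pool, a difference of 0.30 or 1.23-fold on its only probe set. That probe set lies above every floor used and has no cross-hybridisation suffix, so only centring, normalization and the pseudocount could move its value. Under those alternatives Rab3b stayed higher, from 0.26 to 0.30, and never past 0.32. Rab3a, the main neuronal form, read 5201 and 5151, or -0.02, while a second probe set with the suffix for possible cross-hybridisation gave 0.25. Rab3c differed by 0.07 on its brightest probe set and by -0.15 and -0.22 on the other 2. Snap91, which encodes the clathrin adaptor AP180 and is no SNARE despite its symbol, was level at 7032 and 7079.

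**Figure D2:**
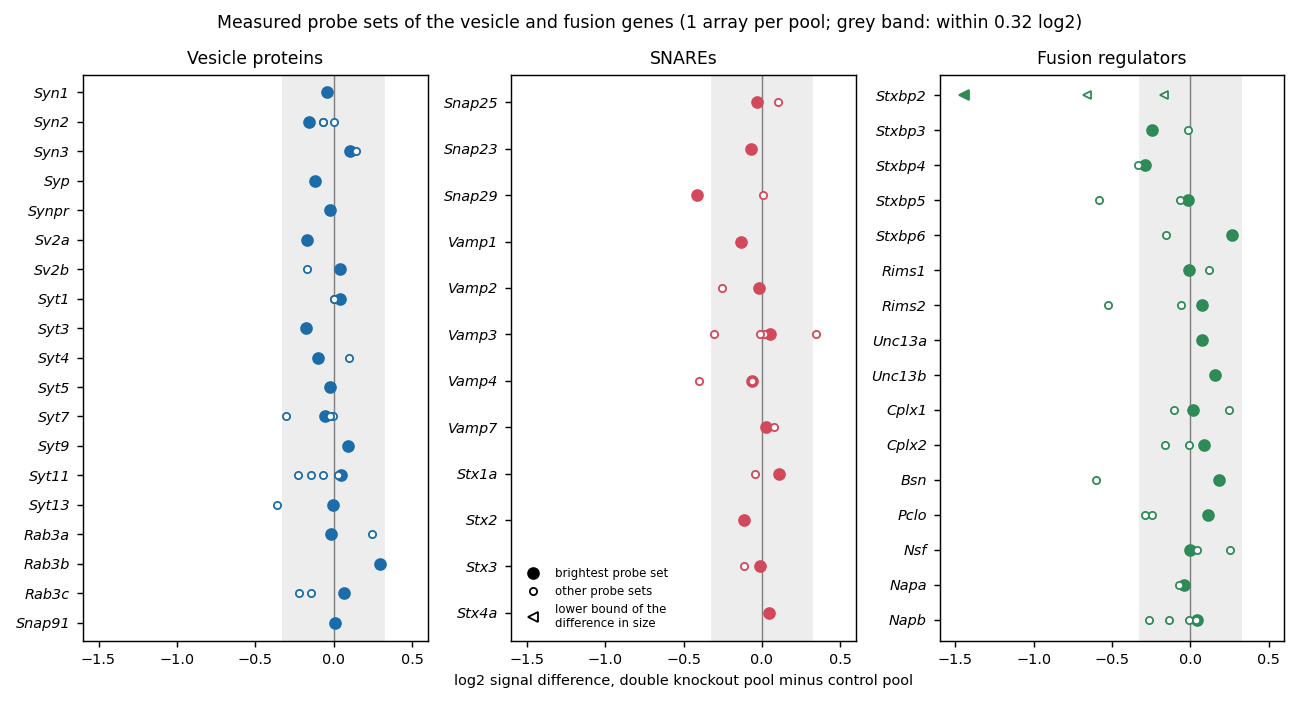
Log2 signal difference (x axis, double knockout minus control pool) of every measured probe set of the 47 measured members, with filled circles for the brightest probe set, open circles for the others and triangles for bounds where the control pool alone reached the floor. Most points lie inside the grey band of 0.32; the filled symbols of Snap29 and Stxbp2 lie outside it on the lower side.

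Among the 12 SNAREs, all measured, 4 stood higher and 8 lower. Their median was -0.03, and only Snap29 passed 0.32. The core neuronal set was level. Snap25, the plasma membrane SNARE of synaptic release, read 11804 and 11580, or -0.03. Its dim second probe set read 260.9 and 280.7, or 0.10. Vamp2, synaptobrevin 2 of forebrain vesicles, read 7859 and 7774, or -0.02, with -0.26 on its other probe set. Stx1a, the neuronal syntaxin, read 4969 and 5365, or 0.11, on a probe set with the cross-hybridisation suffix, and 3484 and 3392, or -0.04, on the one without. Vamp1, the synaptobrevin of spinal cord and brainstem, differed by -0.13 as given above. The 3 neuronal partners of the fusion complex therefore differed by 0.11 or less in size on their brightest probe sets.

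Snap29, a SNARE of endosomal, autophagosomal and other intracellular fusion, was the member farthest from equality among those bright on both arrays. Its brightest probe set read 664.3 in the control pool and 499.3 in the double knockout pool, a difference of -0.42, or 1.33-fold lower. The next read 290.3 and 291.9, or 0.00, and the dimmest stayed under the floor at 132.8 and 136.2. Only 1 of its 3 probe sets thus carried the difference, and the mean over the 2 bright ones was -0.21 ± 0.30 (SD). Its relative Snap23, the form of non-neuronal exocytosis, read 260.0 and 248.3, or -0.07. All 3 genes of the SNAP family were lower on their brightest probe sets, as 47.1% of all measured genes were. Snap25 and Snap23 were lower by 0.07 or less in size. Snap23 stood at 0.00 after quantile normalization, and the 2 probe sets of Snap25 averaged 0.04.

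The remaining SNAREs serve endosomes, lysosomes or general exocytosis. Vamp3, cellubrevin, read 1087 and 1128, or 0.05, and its 5 probe sets ran from -0.30 to 0.35 around a mean of 0.02 ± 0.23 (SD). Vamp4, of the trans-Golgi network and endosomes, read 2681 and 2574, or -0.06, and all 3 of its probe sets were lower, the dimmest by -0.40. Vamp7, a lysosomal form that also takes part in neurite outgrowth, read 1371 and 1398, or 0.02. The plasma membrane syntaxins were level too. Stx2 read 323.2 and 299.9, or -0.11, Stx3 differed by -0.01, from 622.3 to 618.6, and Stx4a by 0.04, from 514.2 to 531.7.

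Regulators of docking, priming and fusion held the largest difference and otherwise stayed near equality. Among the 16 measured there were 9 higher and 7 lower ones, and the median was 0.03. The syntaxin-binding genes were the family with the largest spread, with 1 higher, 4 lower and a median of -0.25. Stxbp2, Munc18-2, which serves granule release in mast cells, platelets and cytotoxic lymphocytes and in epithelia, was the member with the largest difference. Its 3 probe sets read 485.4, 281.8 and 200.3 in the control pool and 176.0, 163.2 and 88.3 in the double knockout pool. Every one of them was above the floor in the control pool and under it in the double knockout pool, the brightest by little. The folds are therefore lower bounds, at least 2.72-fold, at least 1.58-fold and at least 1.12-fold. The first and the last of these probe sets carry the cross-hybridisation suffix, and the one without it gave the middle bound. Of 5229 genes with at least 2 measured probe sets, 11 genes, or 0.21%, had all of them above the floor in the control pool alone, Stxbp2 among them. Of 14 blood cell markers on the array, 13 were under the floor in both pools, among them Ptprc, the pan-leukocyte marker CD45. The other, the T cell kinase Zap70, read 601.1 and 245.4, a difference of -1.30 on its only probe set above the floor in both pools. The part of blood cells in the Stxbp2 signal was not tested.

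**Figure D3:**
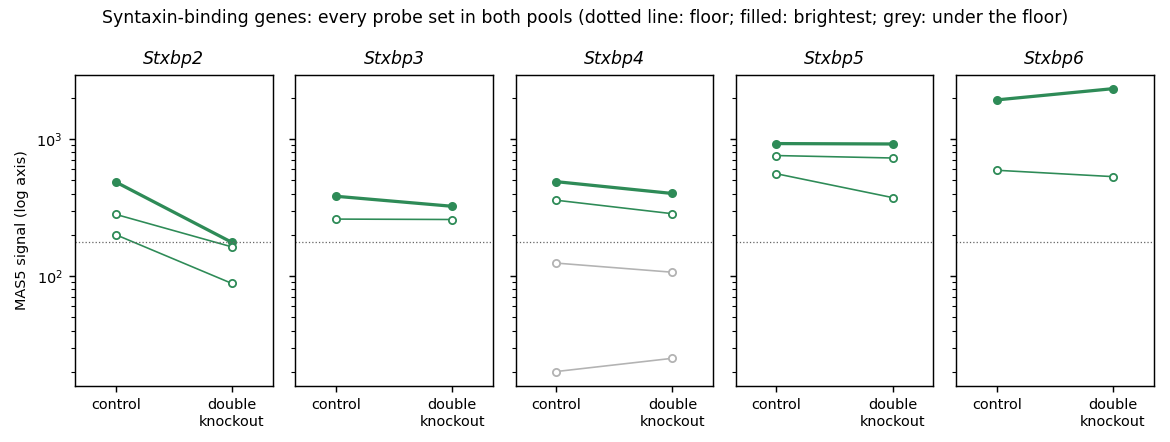
MAS5 signal (y axis, log scale) of every probe set of the 5 syntaxin-binding genes in the control and the double knockout pool, each line joining the 2 values of 1 probe set, filled for the brightest, grey where both values are under the floor. All 3 lines of Stxbp2 cross the dotted floor of 178.6 downwards, while Stxbp3, Stxbp4, Stxbp5 and Stxbp6 each keep at least 2 lines above it.

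The relatives of Stxbp2 differed less. Stxbp3, Munc18-3, which pairs with Stx4a in general exocytosis, read 381.9 and 322.8, or -0.25, and -0.01 on its other probe set. Stxbp4, a syntaxin-4 binding protein also called Synip, read 488.1 and 400.2, or -0.29, and 357.4 and 284.9, or -0.33, on the second. The 2 probe sets of Stxbp4 gave a mean of -0.31 ± 0.03 (SD), so it was lower on both, slightly short of 0.32 on the brighter one. Stxbp5, tomosyn, an inhibitor that takes the place of synaptobrevin, was level on 2 probe sets, at 925.4 and 919.4 and at 756.9 and 726.4. Its dimmest probe set read 557.5 and 373.4, a difference of -0.58. Stxbp6, amisyn, read 1928 and 2328, or 0.27, against -0.16 on its dimmer probe set. Of the 5 syntaxin-binding genes only Stxbp2 was lower by 0.32 or more on its brightest probe set, as 5.55% of all measured genes were. Stxbp2, Stxbp3, Stxbp4 and Stxbp5 were each lower on every measured probe set, a share not counted for all genes.

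Active zone genes were mostly a little higher on their brightest probe sets, 5 of 6, with a median of 0.09. Unc13a and Unc13b, the Munc13 priming factors, read 1220 and 1286, or 0.07, and 896.0 and 1001, or 0.16. Bsn, bassoon, a giant scaffold protein, read 1890 and 2147, or 0.18, but its second probe set read 553.6 and 365.7, or -0.60. Pclo, piccolo, its partner, read 2450 and 2658, or 0.11, and its other 2 probe sets differed by -0.24 and -0.29. In both scaffolds the brightest probe set was higher and each of the others above the floor lower. Rims1 was level at 2813 and 2800. Rims2 read 1552 and 1637, or 0.07, on a probe set with the cross-hybridisation suffix. Its others above the floor, without that suffix, gave -0.06 and -0.53, the latter at 1702 and 1184. The higher count for active zone genes thus rests on which probe set speaks for a gene. With the mean over measured probe sets instead, Bsn, Pclo and Rims2 stood at -0.21, -0.14 and -0.17.

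Complexins and the disassembly machinery were level on their brightest probe sets. Cplx1 read 3709 and 3769, or 0.02, and Cplx2 read 3462 and 3681, or 0.08, with probe sets on both sides of zero for each. Nsf, the ATPase that pulls SNARE complexes apart, read 6593 and 6608, a difference of 0.00, on its brightest probe set. Its dimmest measured probe set read 388.4 and 463.7, or 0.25, and its 3 probe sets averaged 0.10 ± 0.14 (SD). Napa, alpha-SNAP, and Napb, the brain form beta-SNAP, are its adaptors and read 2646 and 2583, or -0.04, and 3810 and 3935, or 0.04. The 5 probe sets of Napb ran from -0.27 to 0.04.

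Disagreement between probe sets of 1 gene was about as frequent here as elsewhere on the array. Of 31 members with at least 2 probe sets above the floor on both arrays, 19 had them on both sides of zero, 61.3%, against 56.9% of 4858 genes. The remaining 12 comprised 9 with all lower and 3 with all higher (Syn3, Syt1 and Vamp7). The SD between probe sets of a gene was 0.19 over these members and 0.18 over those 4858 genes. By less than the latter differed 41 of the 47 members, a share not counted for all measured genes. Their median difference without sign, 0.10, was under it as well. Counted singly, 61 of the 100 member probe sets bright on both arrays were lower, with a median of -0.02, while 49.1% of all such probe sets were. Of the 100, 8 passed 0.32, 7 lower and 1 higher, against 9.44% of all. Those 8 belong to Snap29, Vamp3, Vamp4, Syt13, Rims2, Bsn, Stxbp4 and Stxbp5. No member had 2 or more such probe sets all past 0.32 in 1 direction, as 0.391% of the 4858 genes had on the lower and 0.206% on the higher side.

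**Figure D4:**
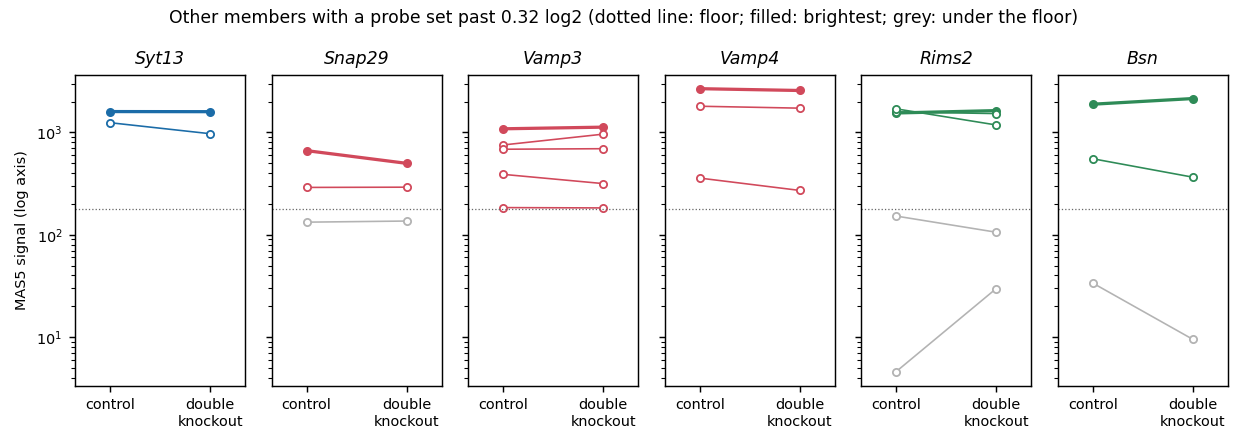
MAS5 signal (y axis, log scale) in the control and the double knockout pool for the 6 members outside the syntaxin-binding genes with a probe set past 0.32, each line joining the values of 1 probe set, filled for the brightest, grey where both values are under the floor. The brightest line of Snap29 goes down by 0.42, and those of the other 5 genes stay within 0.32.

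Most members were also placed in lists by where they are known to be used. Syt7, Syt11, Syt13, Stx3, Stxbp4, Stxbp5, Stxbp6 and Unc13b were in neither list, among them Stxbp4 at -0.29 and Stxbp6 at 0.27. The 28 measured members that are enriched in neurons, such as Syn1, Snap25 and Rab3a, had a median of 0.01, with 15 higher and 13 lower. The 11 widely expressed members, such as Vamp3, Nsf and Stx4a, had a median of -0.06, with 3 higher and 8 lower. Lower were 46.4% of the first list and 72.7% of the second, beside 47.1% of all measured genes of any brightness. Snap29 and Stxbp2 were both placed in the second list, although the roles of Stxbp2 named above are in particular cell types. The difference between the lists was not tested. General neuronal markers mostly lay near equality between the same pools. By the brightest probe set 9 of 11 such markers were higher. Their median was 0.10, and their summed signal went from 66890 to 70050. All 11 had a mean signal of 1000 or more, a range in which only 35.5% of all genes were lower. Only Dcx, of migrating neurons, at 0.43 and the neurofilament Nefm at -0.36 passed 0.32. With the mean over probe sets Rbfox3, Ina and Elavl4 turned lower, at -0.10, -0.02 and -0.01, while the rest kept their direction. All 7 cortical projection neuron markers on the array, among them Tbr1 and Neurod6, were measured in both pools, with a median of 0.08.

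Markers of some other cells and regions differed between the pools. All 9 striatal markers were lower, with a median of -0.31 and a summed signal of 12440 in the control pool and 10550 in the other. Oligodendrocyte lineage markers were lower in 8 of 10, with a median of -0.29, from 23390 to 19880 in sum. The 5 lower by 0.32 or more were the myelin genes Mobp, Mag, Ugt8a, Mbp and Cnp, from -0.97 to -0.32. Mbp alone went from 9809 to 7286. Sox10 and Cspg4 differed by -0.25 and -0.20, and Olig2, Olig1 and Pdgfra by -0.05, 0.04 and 0.15. Meningeal markers were higher in 9 of 9, with a median of 0.23, from 7456 to 9646, and macrophage and microglia markers in 8 of 10, with a median of 0.28, from 8002 to 9093. The part of these cells in the members' signals was not tested. In such bulk RNA fewer cells of a type and less RNA per cell cannot be told apart.

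The wider release pathway was judged from 135 further genes, of which 117 were measured. They divided into 66 higher and 51 lower genes around a median of 0.01. By 0.32 or more 2 were higher and 7 lower, beside 3.45% and 5.55% of all measured genes, and 1 was past 1.5-fold. That gene was Rimbp2, a RIM-binding protein that ties calcium channels to the active zone, which read 1966 and 1159, or -0.77, on 1 probe set. In the list of other active zone and priming genes it was followed by Apba1, the Munc18-binding adaptor Mint1, at 4937 and 3455, or -0.52. In the other direction stood Rims3, a short RIM form, at 0.37 and the liprin Ppfia1 at 0.34, each also on 1 probe set. These were 4 of 29 measured genes of that list, whose median was 0.06.

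Vesicle transporters and membrane proteins outside the 49 had a median of 0.05 over 26 genes. Slc17a7, the glutamate transporter VGLUT1 of cortical vesicles, read 4498 and 3080, or -0.55, on its 1 probe set above the floor in both pools. Its relative Slc17a6, VGLUT2, read 1557 and 1780, or 0.19, and its 2 probe sets averaged 0.09 ± 0.14 (SD). The proton pump subunit Atp6v0a1, which helps to acidify vesicles, differed by -0.37, and its 4 probe sets averaged -0.43 ± 0.05 (SD). Vat1 stood at 0.28 by its brightest probe set, whereas its 3 probe sets averaged -0.11 ± 0.39 (SD). The glutamate transporter and this pump subunit were the 2 of 26 genes past 0.32.

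Other SNAREs, synaptotagmins and recycling genes stayed close to equality. Of 20 further SNAREs 14 were higher and the median was 0.06, and only the Golgi and endosomal SNARE Vti1a passed 0.32, at -0.36, its 3 probe sets averaging -0.18 ± 0.29 (SD). The others named by size were Stx8 at -0.16, Stx6 at 0.21 and Ykt6 at 0.27. Of 11 further synaptotagmins and C2 proteins 8 were lower, with a median of -0.04, and Syt14 at -0.34 was past 0.32, followed by Syt6 at -0.30. The largest in the higher direction on both arrays were Syt16 at 0.06 and Sytl2 at 0.00. The 31 recycling genes included 15 higher and 16 lower ones, with 0.00 as their median. Ston2, stonin 2, a sorting adaptor for synaptotagmin, was the one past 0.32, at -0.44, and Bin1, amphiphysin 2, followed at -0.26. The clathrin adaptor subunits Ap2s1 and Ap2b1 were higher by 0.22 and 0.20.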

How the data were processed

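RNA of 3 animals per group, 6 ug of which was labelled with biotin, was hybridised to 1 array per group, per the labels' protocols. The authors deposited linear intensity values per probe set, made with MAS5 per the submitters' processing notes, whose version and target are not given in the sources used. Of 45101 probe sets 64 were array controls, 34945 named 1 gene, 932 several and 9160 none in the platform annotation. Probe sets naming 1 gene were used, and all 49 members matched a RefSeq gene by Entrez identifier. Signals were centred by 0.0037 log2 on the probe sets bright on both arrays and set to a floor of 178.6, the 50th percentile of non-control signals. Signals are printed as deposited, differences after centring. A gene's value is that of its brightest measured probe set, and 0.32 log2 (a ratio of 5 to 4) and 1.5-fold were the sizes counted. A fold against a pool under the floor is a bound against the floor. Brightness of different probe sets was not compared as expression, and the number of arrays limits the precision. Every member may be named, and of each list of further pathway genes the 2 per direction with the largest difference measured on both arrays are given. The members, lists, thresholds and alternatives were chosen with earlier results of these data known, and no pattern here is independent support for those results. Of the columns, 0 belonged to no listed sample. Calculations used Python 3.11.15, numpy 2.4.6, pandas 2.3.3, statsmodels 0.14.6 and matplotlib 3.10.9, and the scaling was tested on simulated data. The alternatives were no centring, quantile normalization, loess centring (span 0.3), floors set at percentile 25 and at percentile 75, no floor or filter, the floor added as a pseudocount, the mean over probe sets, and no probe sets with the _x_at or _s_at suffix.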

Additional observations from a re-analysis of the deposited data

How the results depend on the processing

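Under the 9 alternatives the number of members higher ran from 17 to 22 and lower from 20 to 30, and their median from -0.062 to 0.00. The largest move of the median, to -0.062, came with the mean over probe sets, which also took the fusion regulators to -0.060 and left 1 member, Stxbp2, lower by 0.32 or more. A pseudocount equal to the floor left 1 as well, again Stxbp2. The floor at the 25th percentile, and no floor or filter, each gave 3 lower members, Sv2c joining Snap29 and Stxbp2. With the floor at the 75th percentile 0 members were past 0.32 or 1.5-fold, since the probe sets of Stxbp2 then fall out and Snap29 meets the floor. Stxbp2 was lower in each of the 8 alternatives that measured it, from -1.47 to -0.66. Of the 47 measured members 29 kept their direction in every alternative run and 18 changed it in at least 1, none of these past 0.32. No paired analysis was possible because each group is 1 array of pooled RNA, and for the same reason no replicate could be left out.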

Other observations

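Genes beside Stxbp2 on mouse chromosome 8, in RefSeq order, were looked up after its values were seen. Retn, the next gene, which encodes the hormone resistin, read 255.8 and 202.4, a difference of -0.34. Trappc5, a subunit of a vesicle tethering complex, lies 4 genes on and had 2 probe sets at -0.45 and -0.37, from 487.1 to 358.0 and from 702.1 to 543.4. On the other side Pcp2, a Purkinje cell gene, stayed under the floor on its 3 probe sets, Pet100, a mitochondrial assembly factor, was higher by 0.28 and Camsap3, a microtubule minus-end protein, by 0.19. Xab2, a splicing protein, had 3 probe sets from -0.34 to 0.07. Mcemp1, Fcor and Fcer2a stayed under the floor. The neighbouring probe sets past 0.32 were those of Retn and Trappc5 and the lowest of Xab2, all of them lower. Of all 18877 probe sets bright on both arrays, 1145 were lower and 637 higher by that size. Whether the region as a whole differs was not tested.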
